A study of Mus musculus with 28 samples.

Results

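The genes described here are 50 mouse protein-coding genes whose mRNA was highest at 24 h of C2C12 muscle cell differentiation and had come down again by 60 h and 96 h. They were chosen by their measured levels. The unit was log2(CPM + 1), where CPM is the count of a gene divided by its library total and scaled in the usual way, averaged over the 3 libraries of each group. A gene was kept when its 24 h mean was at least 3, lay at least 1 above the means of growth medium, 60 h and 96 h, and was not below the 12 h mean. Of 22215 protein-coding genes in the count table, 9395 had a 24 h mean of at least 3 and 50 met the whole rule. Because these values chose the genes, the height of the 24 h peak over growth medium, 12 h, 60 h and 96 h is given below as a description, without a test. The 48 h libraries took no part in the choice. The differences of 12 h, 48 h, 60 h and 96 h from growth medium were not part of the rule and were tested, but the growth medium, 12 h, 60 h and 96 h libraries had each been bounded by 24 h, so those tests share libraries with the choice. The difference of 48 h from 24 h rests on the 24 h libraries that chose the genes and is given as a description.

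C2C12 is an immortalised line of mouse myoblasts, the precursor cells of skeletal muscle, which stop dividing and fuse into multinucleated myotubes once serum is reduced. The 18 strand-specific RNA-seq libraries fell into 6 groups of 3. They were growth medium (GM), DMEM with 20% fetal bovine serum, and then 12, 24, 48, 60 and 96 h in differentiation medium, DMEM with 3% horse serum, to which the cultures were moved at 90% confluence. The labels name no altered gene and no drug in any group, so GM and the later groups differed in medium and serum as well as in time. ATAC-seq (2 libraries per group) and Hi-C (3 libraries per group) covered 60 h in differentiation medium and GM. Replicates are called biological in the labels, but no separate cultures are described. The p-values therefore rest on differences among libraries that may be partly technical.

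Library totals ran between 24154680 and 36405121 counts. The 6 myoblast and myotube markers (Myod1, Myf5, Des, Myog, Mymk and Ckm) summed to between 2693 and 2831 CPM at 96 h and between 669 and 715 CPM in GM libraries, so the markers of the line were present. Markers of neurons, endothelium, epithelium and macrophages summed to at most 2.35 CPM in any library. Chondrocyte markers summed to between 4.21 and 14.9 CPM, with Acan at 0, and osteoblast markers to between 5.65 and 14.8 CPM, chiefly Runx2. Of the 5 adipocyte markers, Adipoq, Plin1 and Cidec were at or near 0, and Cebpa and Pparg carried the sum, 26.4 to 27.7 CPM at 24 h and 29.4 to 33.6 CPM in GM. In bulk RNA, fewer cells of a type and less RNA per cell cannot be told apart. Replicate 3 of 24 h stood apart: 107 of the 9395 genes lay at least 0.5 (log2) above both other 24 h libraries, against at most 9 such genes in any other library. None of the 50 members was among those 107 genes. Without that library the rule found 49 genes, 46 of them shared with the 50; Fads1, Kif1a, Kitl and Traf5 dropped out.

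The number of members moved more with the scaling than with any single library left out (48 to 52). TMM scaling, which sets libraries level over the bulk of genes, placed the 24 h group 0.15 lower (log2) relative to 60 h than division by library totals did. On TMM-scaled CPM 31 genes met the rule, all of them among the 50. The 19 that dropped out included Sqle, Hsd17b7, Sc5d, Mvk and Fdps of cholesterol synthesis and Fads1, Fads2, Fasn and Scd2 of fatty acid synthesis. Car9, Bnip3 and Pgk1, of the hypoxia and glycolysis lists, dropped out too. Just inside the limit of 1 were Kitl (1.00), Kif1a (1.01) and Hsd17b7 (1.01), and just outside it were Efnb2 (0.99) and Sgsm1 (0.98).

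Cells make cholesterol from acetyl-CoA through mevalonate, farnesyl diphosphate, squalene and lanosterol. When membranes of the endoplasmic reticulum run low in sterol, the SCAP escort protein carries the transcription factor SREBP2 to the Golgi, where it is cleaved and released to the nucleus to switch on the genes of this pathway; INSIG proteins hold SCAP back when sterol is plentiful. The related factor SREBP1 acts chiefly on genes of fatty acid synthesis and desaturation. A separate factor, HIF-1, raises genes of glycolysis and of survival at low oxygen. Muscle precursors remodel their membranes as they fuse, and sterol and phospholipid supply is part of that setting.

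The members held 12 of the 20 genes in a cholesterol synthesis list, 7 of 18 in a list of fatty acid synthesis and desaturation, 3 of 18 in one of sterol sensing, uptake and transport, 2 of 18 hypoxia response genes and 2 of 22 genes of glycolysis. The other 16 of 21 lists, among them sarcomere, myogenic transcription factors, Notch and interferon response, held no member. Having the highest mean at 24 h was wider than membership. It was seen in 18 of 20 cholesterol synthesis, 17 of 22 glycolysis and 11 of 18 hypoxia response genes. It was likewise seen in 12 of 18 fatty acid, 11 of 18 sterol sensing and 9 of 23 myoblast fusion genes. So it was in 12 of 21 interferon response genes, a list in which 5 genes had a 24 h mean of at least 3. In sarcomere genes it was not seen. The share of all genes with their highest mean at 24 h was not computed, so these counts of highest means are a description only. The remaining 24 members were in no list. These counts hold for scaling by library totals, since the listed genes named above dropped out on TMM-scaled CPM. Of the 12 cholesterol synthesis members, 9 had a promoter in the RefSeq table, and 8 of those 9 carried a CCAAT box. Pmvk carried it in 1 of its 2 promoters only. Of the members in no list, 16 had a promoter and 3 of those carried the box. The box was in 51.4% of all members with a promoter. It was in 43.7% of protein-coding genes with a 24 h mean of at least 3 and 41.1% of all genes. CCAAT is the binding sequence of the factor NF-Y, which is known to act together with SREBP. Neither form of the sterol element described below was in those 9 promoters, and binding was not tested. Promoters of 5 members that carry the box are printed as examples of how it sits near the start site. They are not typical of the members, since Mvk and Nsdhl had more boxes than any other member promoter and Acat2 had none. Each runs 5′ to 3′ on the gene's own strand from 250 bases before to 50 after the start (RefSeq, GRCm38.p6), with CCAAT or its reverse complement ATTGG and the CACGTG form of the E-box in capitals. Idi1 is at chr13:8885356-8885655 (plus strand), Nsdhl at chrX:72918271-72918570 (plus), Mvk at chr5:114444019-114444318 (plus), Insig1 at chr5:28071162-28071461 (plus) and Bnip3 at chr7:138909457-138909756 (minus).
Idi1: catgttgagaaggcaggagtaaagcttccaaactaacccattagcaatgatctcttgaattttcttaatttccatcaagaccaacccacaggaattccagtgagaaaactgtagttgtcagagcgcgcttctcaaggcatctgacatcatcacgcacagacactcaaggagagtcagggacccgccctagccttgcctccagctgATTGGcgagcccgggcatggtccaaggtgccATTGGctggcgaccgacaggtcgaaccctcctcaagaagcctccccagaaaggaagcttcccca
Nsdhl: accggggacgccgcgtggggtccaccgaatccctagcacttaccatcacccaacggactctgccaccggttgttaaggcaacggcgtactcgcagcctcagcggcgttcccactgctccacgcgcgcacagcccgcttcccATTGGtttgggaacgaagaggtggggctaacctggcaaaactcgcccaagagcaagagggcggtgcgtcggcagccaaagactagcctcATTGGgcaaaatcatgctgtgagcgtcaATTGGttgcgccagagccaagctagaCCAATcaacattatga
Mvk: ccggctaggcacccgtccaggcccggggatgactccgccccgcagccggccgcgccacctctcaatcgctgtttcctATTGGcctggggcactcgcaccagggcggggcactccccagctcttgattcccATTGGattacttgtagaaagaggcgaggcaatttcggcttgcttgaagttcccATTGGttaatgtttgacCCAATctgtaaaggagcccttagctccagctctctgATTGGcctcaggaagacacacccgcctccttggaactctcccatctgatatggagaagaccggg
Insig1: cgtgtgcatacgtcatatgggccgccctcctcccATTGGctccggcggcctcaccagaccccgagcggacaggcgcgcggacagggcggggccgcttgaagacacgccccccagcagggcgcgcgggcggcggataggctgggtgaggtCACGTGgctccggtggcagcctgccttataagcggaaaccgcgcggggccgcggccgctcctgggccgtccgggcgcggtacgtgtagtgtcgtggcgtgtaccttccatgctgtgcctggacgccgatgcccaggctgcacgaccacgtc
Bnip3: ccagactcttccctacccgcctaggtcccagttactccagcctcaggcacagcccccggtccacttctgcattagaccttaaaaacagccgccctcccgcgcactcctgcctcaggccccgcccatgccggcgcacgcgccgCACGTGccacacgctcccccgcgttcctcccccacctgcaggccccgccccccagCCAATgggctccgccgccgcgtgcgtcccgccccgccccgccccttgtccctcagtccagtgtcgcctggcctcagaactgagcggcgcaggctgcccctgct
The Mvk promoter held 5 such boxes and that of Nsdhl 4. Both boxes of Idi1 lay within the 50 bases upstream of its start site. Insig1 and Bnip3 each had 1 box together with 1 CACGTG, which began 101 and 108 bases before their start sites.

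**Figure D1:**
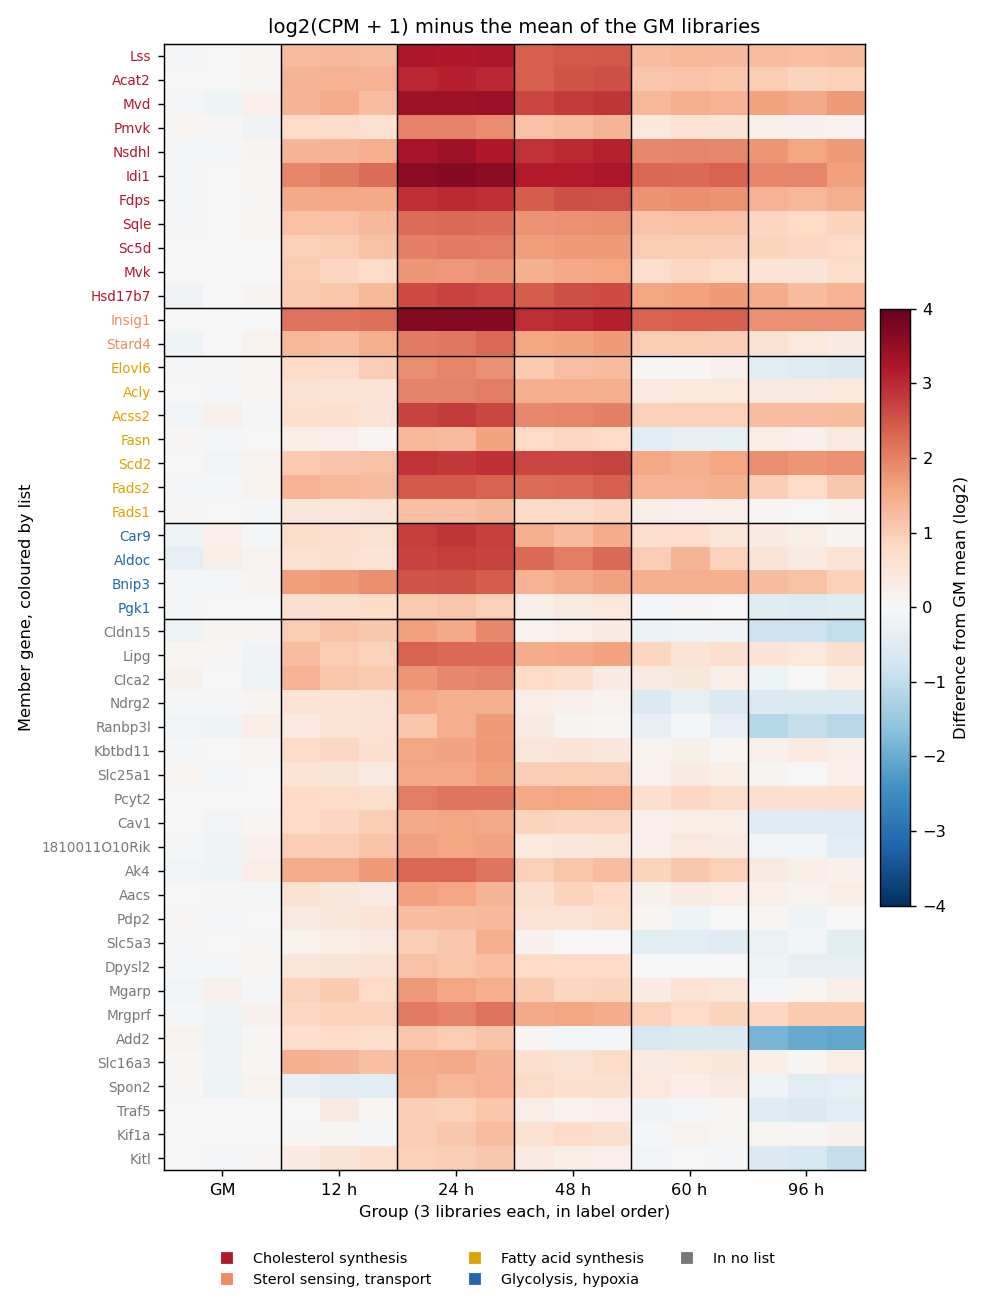
Level of 47 of the 50 members in each of 18 RNA-seq libraries, as log2(CPM + 1) minus the mean of the 3 GM libraries of that gene; columns are libraries in time order, and gene names are coloured by list. The 24 h columns are the darkest red in nearly all genes, cholesterol synthesis genes stay red through 96 h, and several genes in no list turn blue by 96 h.

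Together the members took a summed 2541 to 2680 CPM in the GM libraries, 4670 to 4924 at 12 h, 10350 to 10586 at 24 h, 7214 to 7600 at 48 h, 4106 to 4191 at 60 h and 3757 to 3919 at 96 h. The summed level of the 24 h libraries was the highest of the 6 groups, with no overlap. Gene by gene, the 24 h mean exceeded the GM mean by a median of 1.88 (log2, lowest 1.00, highest 3.66). The 60 h mean was the closest of the 3 bounded groups for 30 members, GM for 12 and 96 h for 8. In every member all 3 libraries of 24 h lay above all 3 of 60 h, of 96 h and of GM, as the rule all but required. Over all 15303 genes tested, 21.6% were called higher at 24 h than at 60 h, 28.2% than at 96 h and 30.2% than in GM, by edgeR's quasi-likelihood test at an adjusted p under 0.05; nothing is read from those shares here.

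Sterol synthesis genes were already up at 12 h. Idi1, which interconverts the isoprene units that farnesyl diphosphate is built from, had 26.2, 26.4 and 28.3 CPM in GM, 108, 116 and 131 at 12 h, 344, 356 and 332 at 24 h, 248, 250.4 and 264 at 48 h, 136, 133 and 142 at 60 h and 108, 108 and 86.6 at 96 h. Its 12 h and 96 h libraries met at 108 CPM, no other pair of its groups overlapped, and its fitted log2 fold change was 2.10 ± 0.07 at 12 h over GM (edgeR adjusted p = 8.3e-15). Insig1, the sterol-regulated brake on SCAP and itself a classical SREBP target, had 37.4, 37.3 and 38.5 CPM in GM, 173, 172 and 176 at 12 h, 494, 496 and 480.0 at 24 h, 297, 314 and 331 at 48 h, 197, 202 and 200.4 at 60 h and 138, 136 and 135 at 96 h. No pair of its groups overlapped, and its change at 12 h over GM was 2.16 ± 0.05 (edgeR adjusted p = 1.1e-17). These were the 2 largest fitted changes at 12 h among the members.

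Between 12 h and GM, 46 of 50 members rose, 1 fell and 3 did not pass the test. Over all genes tested, 17.8% were called higher and 17.2% lower in that comparison. The median fitted log2 change was 0.91 over the members and 0.00 over all genes tested. All 12 cholesterol synthesis members rose, by 0.71 (Pmvk) to 2.10 (Idi1), as did the 3 of sterol sensing and the 4 of hypoxia and glycolysis. The rest of the cholesterol list moved likewise: all 8 of its non-members were called higher at 12 h, with a median of 1.33. The member means at 12 h stood at least 1 above GM for 21 members, 10 of them in cholesterol synthesis. GM libraries were used in choosing the members, so a low GM value in a member favours a positive change here.

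The fatty acid members had a median change of 0.68 at 12 h over GM. Fasn, the fatty acid synthase, had 207, 192 and 196 CPM in GM, 236, 226 and 211 at 12 h, 504, 478 and 601 at 24 h, 347, 349.5 and 336 at 48 h, 147, 158 and 155 at 60 h and 239.7, 229 and 263 at 96 h. Its 12 h change over GM was 0.14 ± 0.07 (edgeR adjusted p = 0.12) and did not pass the test, although the 12 h libraries lay above those of GM. Acly, which makes cytosolic acetyl-CoA from citrate, had 136, 133 and 144 CPM in GM, 208, 206 and 200.2 at 12 h, 544, 551 and 571 at 24 h, 377, 376 and 379 at 48 h, 180.1, 187 and 186 at 60 h and 178, 176 and 186 at 96 h. It rose at 12 h by 0.54 ± 0.04 (edgeR adjusted p = 9.3e-09), and most of its increase fell between 12 h and 24 h. Scd2, a stearoyl-CoA desaturase, had 324, 303 and 368 CPM in GM, 680.0, 733 and 739.8 at 12 h, 2434, 2361 and 2529 at 24 h, 2107, 2124 and 2178 at 48 h, 968, 917 and 983 at 60 h and 1196, 1136 and 1174 at 96 h. Of the 7 fatty acid members 6 rose at 12 h, with changes of 0.46 (Fads1) to 1.34 (Fads2). In the rest of that list, 2 of 9 tested genes were called higher at 12 h and 2 lower.

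**Figure D2:**
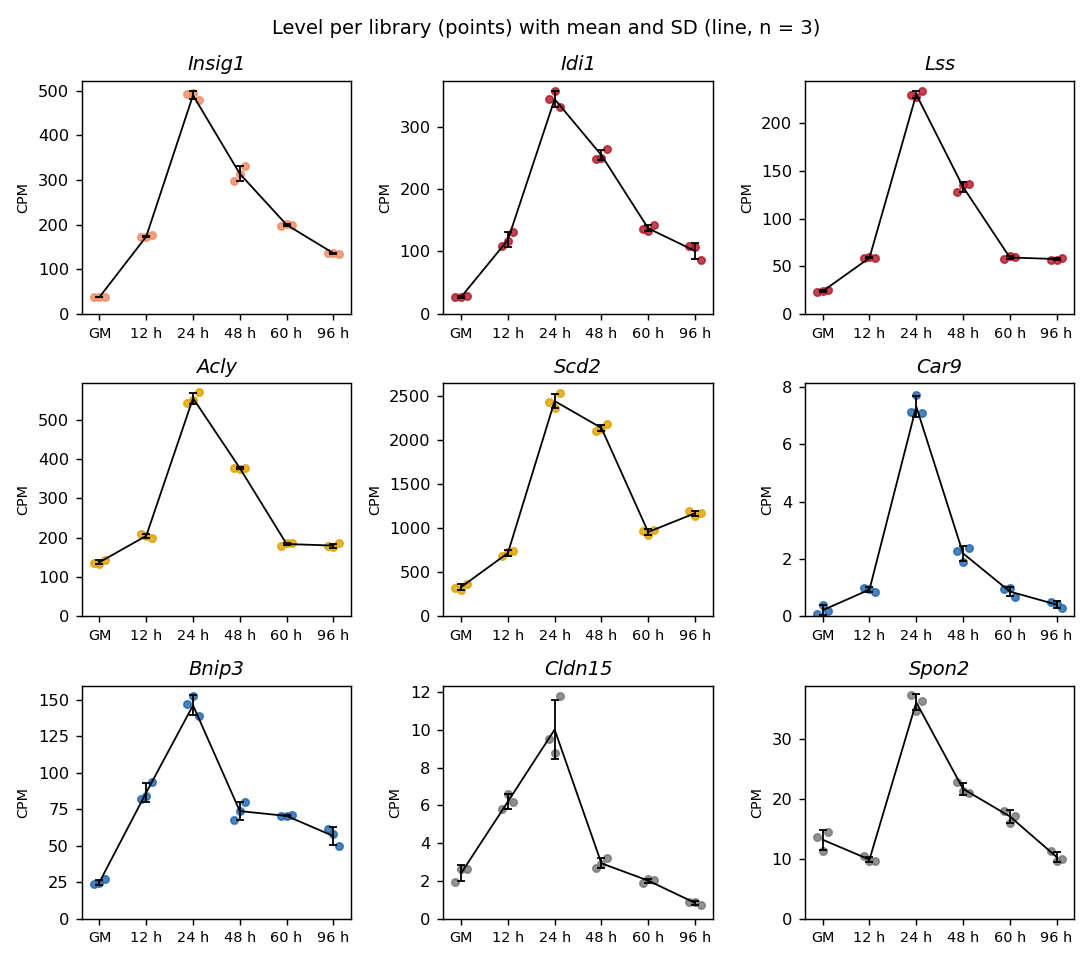
CPM of 9 members in the 3 libraries of each group (points) with the group mean and SD (black line and bars, n = 3), on linear axes that start at 0. Each gene is highest at 24 h; Idi1 and Scd2 keep most of that level at 48 h, while Car9 and Cldn15 lose most of it.

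Spon2, a secreted matrix protein, was the 1 member that fell at 12 h. It had 13.7, 11.3 and 14.5 CPM in GM, 10.4, 9.59 and 9.57 at 12 h, 37.3, 34.6 and 36.2 at 24 h, 22.8, 21.2 and 20.9 at 48 h, 18.02, 16.0 and 17.2 at 60 h and 11.3, 9.56 and 10.0 at 96 h. The 3 libraries of 12 h lay below the 3 of GM, with a change of -0.45 ± 0.08 (edgeR adjusted p = 2.8e-04), and the 24 h libraries then lay above all others. Kif1a, a kinesin motor of vesicle transport, had 4.59, 4.54 and 4.55 CPM in GM, 4.74, 4.81 and 4.42 at 12 h and 10.1, 10.8 and 12.1 at 24 h, and did not pass the test at 12 h. Traf5, a signalling adaptor of tumour necrosis factor receptors, had 9.05, 11.8 and 9.77 CPM at 12 h and 9.36, 9.12 and 9.13 CPM in GM, groups that overlapped.

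The hypoxia and glycolysis members differed in level and timing. Bnip3, a mitochondrial outer membrane protein of mitophagy and a classical HIF-1 target, had 23.9, 24.5 and 27.1 CPM in GM, 81.8, 84.1 and 93.8 at 12 h, 147, 153 and 139 at 24 h, 67.5, 73.6 and 80.4 at 48 h, 70.4, 70.3 and 70.9 at 60 h and 61.9, 58.2 and 50.1 at 96 h. Its 12 h libraries were above the GM libraries by 1.74 ± 0.07 on the log2 scale (edgeR adjusted p = 1.9e-13), and its 48 h and 60 h libraries overlapped. Car9, a cell-surface carbonic anhydrase and another HIF-1 target, had 0.0746, 0.397 and 0.170 CPM in GM, 0.999, 0.961 and 0.843 at 12 h, 7.12, 7.74 and 7.09 at 24 h, 2.29, 1.91 and 2.40 at 48 h, 0.953, 0.972 and 0.672 at 60 h and 0.511, 0.423 and 0.296 at 96 h. These are small counts, 2 to 13 reads per GM library and 200 to 265 per 24 h library. Aldoc, a brain-enriched aldolase isoform, had 0.485, 1.28 and 1.15 CPM in GM, 1.97, 2.03 and 1.86 at 12 h, 11.7, 12.3 and 11.5 at 24 h, 8.23, 7.05 and 8.36 at 48 h, 2.90, 3.96 and 2.66 at 60 h and 1.79, 1.50 and 1.81 at 96 h. Its 48 h level stayed nearer to 24 h than to GM. Pgk1, the glycolytic phosphoglycerate kinase, had 712, 747 and 740.3 CPM in GM, 1174, 1205 and 1268 at 12 h, 1504, 1570.3 and 1433 at 24 h, 871, 936 and 986 at 48 h, 705, 753 and 720.0 at 60 h and 527, 506 and 529 at 96 h. The gene Pgk1-rs7 is a near copy of Pgk1, so reads may have been split between them and the Pgk1 values are uncertain. Ak4, a mitochondrial adenylate kinase, is in no list and had 6.79, 6.56 and 9.27 CPM in GM, 22.7, 22.9 and 26.4 at 12 h, 40.3, 40.4 and 36.5 at 24 h, 15.3, 17.4 and 18.8 at 48 h, 14.8, 16.9 and 15.4 at 60 h and 9.87, 8.97 and 8.47 at 96 h. Its 12 h libraries lay above its 48 h libraries. Slc16a3, the lactate exporter MCT4, was named after its values were seen. It had 40.9, 41.8 and 37.2 CPM at 24 h and 38.8, 37.2 and 33.3 CPM at 12 h, and was the single member whose 12 h and 24 h libraries overlapped. The share of all genes without overlap between 12 h and 24 h was not computed. By edgeR's test, a different measure, 27.8% of all genes were called higher at 24 h than at 12 h.

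At 48 h, the group the rule left out, 46 of 50 members were above GM, none below, and 4 did not pass the test. Of all genes tested, 32.5% were called higher at 48 h and 32.8% were called lower. The members' median change was 1.19, against 0.01 over all genes. As at 12 h, the GM libraries had been used in the choice, so a low GM value in a member favours a positive change. The 4 that did not pass were Cldn15 (0.26 ± 0.15), Ranbp3l (0.19 ± 0.14), Slc5a3 (0.05 ± 0.08) and Add2 (-0.02 ± 0.07), all in no list. Of these, Ranbp3l passed when GM replicate 3 was left out (edgeR adjusted p = 0.042). The call of Traf5 (0.21 ± 0.09, edgeR adjusted p = 0.044) was lost with DESeq2 (adjusted p = 0.059), with a replicate block (0.051), without a filter on low counts (0.067), without any single GM or 48 h library, and without some single libraries of 24 h, 60 h or 96 h. That of Ndrg2 (0.23 ± 0.08, edgeR adjusted p = 0.015) was lost without a filter on low counts (0.062), without GM replicate 1 or 2 and without 48 h replicate 1 or 2.

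Against 24 h, 48 of 50 members passed the threshold as lower at 48 h, where 14.8% of all genes tested were called lower and 17.5% higher. The members' median change was -0.63, against 0.02 over all genes. The 24 h libraries had chosen the members, and a high 24 h value favours a lower value at any other time, so nothing is read from that count. Without 24 h replicate 3, the library that stood apart, it was 47.

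In 12 members the 48 h mean lay within 0.5 (log2) of the 24 h mean: 7 in cholesterol synthesis, 3 in fatty acid synthesis, and Kif1a and Dpysl2. The other 38 were lower by more, 10 of them by at least 1. Hsd17b7, a reductase of the demethylation steps after lanosterol, had 11.4, 12.7 and 13.6 CPM in GM, 27.2, 28.4 and 32.8 at 12 h, 82.4, 86.6 and 83.0 at 24 h, 71.4, 80.2 and 81.2 at 48 h, 39.8, 40.4 and 43.5 at 60 h and 36.6, 31.8 and 34.3 at 96 h, with a fitted change of -0.06 ± 0.07 between 48 h and 24 h. Fads2, the delta-6 desaturase of polyunsaturated fatty acids, had 79.6, 80.9 and 87.6 CPM at 48 h and 91.5, 92.0 and 86.4 CPM at 24 h (-0.07 ± 0.07). Among the members it was the only pair of 24 h and 48 h groups that overlapped. The share of all genes without overlap between 24 h and 48 h was not computed. The change between 48 h and 24 h was -0.14 ± 0.05 for Scd2 and -0.22 ± 0.07 for Mvk, mevalonate kinase. Nsdhl, a sterol dehydrogenase, had 15.4, 15.04 and 17.1 CPM in GM, 42.4, 42.1 and 44.99 at 12 h, 163, 175 and 154 at 24 h, 125, 132 and 141 at 48 h, 62.7, 64.1 and 63.1 at 60 h and 56.8, 49.3 and 53.3 at 96 h and had a change of -0.25 ± 0.06 between 48 h and 24 h.

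Lss and Acat2 had come down further than these by 48 h. Lss, which closes squalene epoxide into lanosterol, had 22.9, 23.5 and 24.9 CPM in GM, 58.5, 59.4 and 58.4 at 12 h, 229.8, 227 and 234 at 24 h, 127, 136 and 137 at 48 h, 57.1, 61.0 and 59.3 at 60 h and 57.0, 56.6 and 59.0 at 96 h. Acat2, the cytosolic thiolase that makes acetoacetyl-CoA, had 38.0, 38.5 and 40.1 CPM in GM, 102, 103 and 104 at 12 h, 324, 343 and 319.5 at 24 h, 206, 225 and 235 at 48 h, 84.7, 86.0 and 85.9 at 60 h and 80.3, 73.7 and 76.7 at 96 h. Acat3 is a close copy of Acat2 in the mouse, so some Acat2 reads may belong to it. Their 48 h changes against 24 h were -0.74 ± 0.05 for Lss and -0.52 ± 0.05 for Acat2. Of the 8 list genes of cholesterol synthesis that are not members, which were not chosen by the rule, 6 were called lower and 1 higher at 48 h than at 24 h.

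The largest differences between 48 h and 24 h were in Cldn15, Car9 and Clca2. Cldn15, a tight junction claudin, had 1.94, 2.65 and 2.65 CPM in GM, 5.82, 6.59 and 6.19 at 12 h, 9.52, 8.76 and 11.8 at 24 h, 2.71, 2.88 and 3.23 at 48 h, 1.91, 2.09 and 2.08 at 60 h and 0.894, 0.910 and 0.722 at 96 h; its 48 h change against 24 h was -1.72 ± 0.13. That of Car9 was -1.69 ± 0.19. Clca2, an accessory protein of chloride channels, had 1.83, 1.59 and 1.22 CPM in GM, 5.71, 4.45 and 4.22 at 12 h, 7.64, 8.53 and 9.01 at 24 h, 3.43, 3.09 and 2.15 at 48 h, 2.26, 2.48 and 1.98 at 60 h and 1.21, 1.53 and 2.00 at 96 h, with a change of -1.47 ± 0.17 between 48 h and 24 h. Ndrg2, a differentiation-related protein of the NDRG family, had 6.90, 7.05 and 7.94 CPM in GM, 11.1, 11.2 and 11.5 at 12 h, 22.4, 21.0 and 21.1 at 24 h, 9.04, 8.59 and 8.16 at 48 h, 4.53, 5.44 and 4.58 at 60 h and 4.60, 4.52 and 4.53 at 96 h. Ranbp3l, a Ran-binding protein, had 8.65, 8.36 and 11.6 CPM in GM, 12.6, 14.3 and 14.98 at 12 h, 21.4, 27.4 and 33.2 at 24 h, 12.4, 10.25 and 9.89 at 48 h, 7.26, 8.89 and 7.36 at 60 h and 3.71, 4.36 and 3.84 at 96 h. Its 24 h libraries were the most spread of these genes, and replicate 3 was the highest. Kbtbd11, a protein with kelch and BTB domains, had 26.7, 27.1 and 29.1 CPM in GM, 84.2, 87.0 and 93.3 at 24 h and 39.1, 39.5 and 38.0 at 48 h. In each of these genes the 3 libraries of 48 h lay below the 3 of 24 h.

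**Figure D3:**
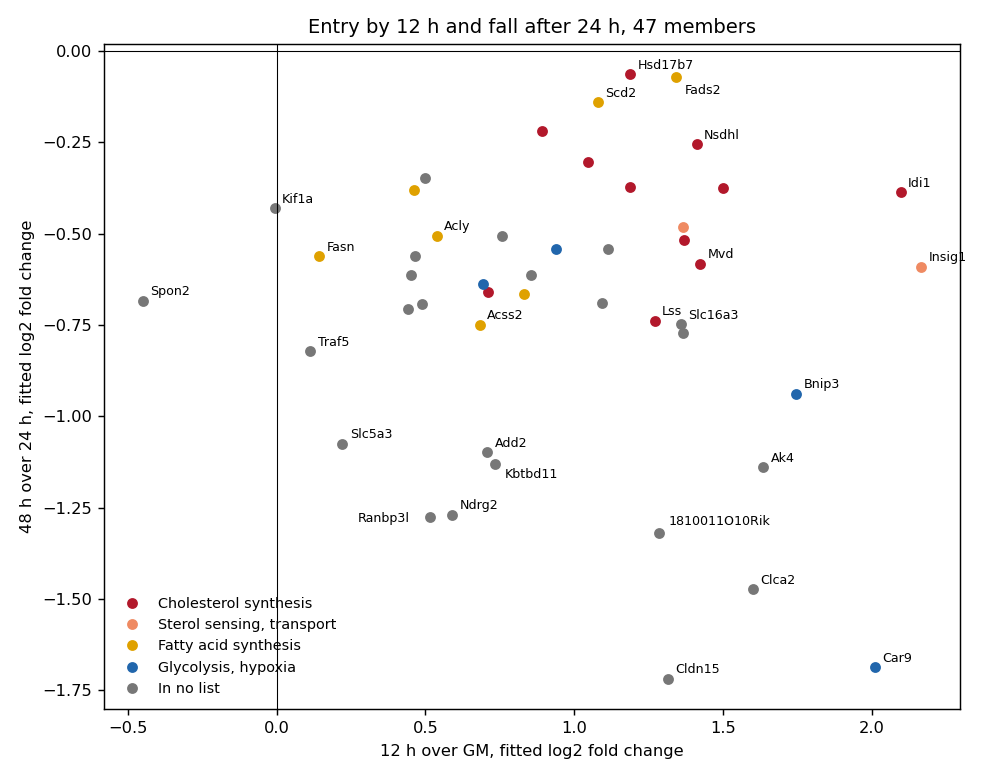
Each of the 47 points is a member, with the fitted log2 fold change of 12 h over GM on the x axis and of 48 h over 24 h on the y axis; colours mark lists. Cholesterol synthesis genes lie to the upper right (12 h changes of 0.71 to 2.10, 48 h changes of -0.74 to -0.06), Cldn15, Car9 and Clca2 at the bottom, and Spon2 farthest to the left with a 12 h change of -0.45.

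By 60 h and 96 h members lay on both sides of GM. The rule had bounded the means of all 3 of these groups by 24 h but not against each other, so the calls below share libraries with the choice on both sides. At 60 h, 36 were above GM, 4 below and 10 did not pass the test, where 33.1% of all genes were called higher and 32.2% lower. At 96 h, 31 were above GM, 14 below and 5 did not pass, where 34.8% of all genes were called higher and 34.1% lower. The members' median change over GM was 0.64 at 60 h and 0.35 at 96 h, and 0.01 over all genes at both times. Leaving out single libraries in turn gave 26 to 31 members above GM at 96 h and 12 to 14 below.

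All 12 cholesterol synthesis members were still above GM at 60 h, with a median change of 1.34, and at 96 h, with a median of 1.20. Idi1 stood highest at 96 h over GM (1.98 ± 0.07, edgeR adjusted p = 2.9e-16), and Nsdhl followed (1.82 ± 0.07). Mvd, the decarboxylase that ends the mevalonate steps, had 8.17, 7.32 and 9.91 CPM in GM, 23.1, 25.2 and 21.3 at 12 h, 97.8, 98.2 and 100.2 at 24 h, 59.3, 64.4 and 67.4 at 48 h, 22.6, 24.5 and 23.7 at 60 h and 27.9, 26.1 and 29.7 at 96 h. Its 96 h libraries lay above those of 60 h. Pmvk, phosphomevalonate kinase, was the weakest at 96 h, with 14.6, 14.2 and 13.9 CPM at 96 h and 13.4, 13.0 and 11.3 CPM in GM (0.25 ± 0.09, edgeR adjusted p = 0.012), a call lost without GM replicate 3 (adjusted p = 0.099). Fdps, farnesyl diphosphate synthase, had 232, 219 and 238 CPM at 96 h and 83.9, 87.3 and 90.4 CPM in GM. Sqle, squalene epoxidase, and Sc5d, a sterol desaturase, were named as members of the list after their values were seen; their 96 h changes over GM were 0.94 ± 0.05 and 0.95 ± 0.05. All 8 list genes that are not members were also called above GM at both times.

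Regulators were also on the sterol list. On the log2(CPM + 1) scale the mean of Srebf2, which encodes SREBP2, was 6.33 in GM, 6.64 at 12 h, 7.22 at 24 h, 7.18 at 48 h, 6.84 at 60 h and 7.40 at 96 h, and that of Scap was 5.67 in GM, 5.59 at 12 h, 5.43 at 24 h, 5.15 at 48 h, 5.00 at 60 h and 5.37 at 96 h. Both were named after their values were seen, and neither was highest at 24 h. Insig1 and Stard4, a sterol carrier, remained above GM at 96 h (1.93 ± 0.05 and 0.56 ± 0.08). Stard4 had 9.58, 11.1 and 12.2 CPM in GM, 28.7, 27.2 and 31.3 at 12 h, 49.4, 50.2 and 57.0 at 24 h, 34.7, 35.6 and 37.9 at 48 h, 22.9, 23.1 and 22.4 at 60 h and 17.2, 15.1 and 13.9 at 96 h. Its 24 h libraries lay above all others. Of the 15 genes of the sterol sensing list that are not members, 9 were called above GM and 3 below at 96 h.

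Elovl6 and Fasn were the fatty acid members called below GM at a late time. Elovl6, an elongase of long-chain fatty acids, had 27.2, 29.9 and 30.0 CPM in GM, 51.2, 50.5 and 57.9 at 12 h, 109, 115 and 105 at 24 h, 61.4, 67.7 and 71.1 at 48 h, 30.3, 30.9 and 33.1 at 60 h and 21.2, 20.1 and 19.0 at 96 h; it was below GM at 96 h (-0.46 ± 0.07, edgeR adjusted p = 7.0e-06). Its 60 h change of 0.21 ± 0.07 passed the test (edgeR adjusted p = 0.01) but not with total-count scaling (adjusted p = 0.15). Nor did it pass without GM replicate 1 (edgeR adjusted p = 0.1) or without 60 h replicate 3 (0.074). Fasn was below GM at 60 h (-0.27 ± 0.07, edgeR adjusted p = 0.0021) and above it at 96 h (0.38 ± 0.07, edgeR adjusted p = 7.4e-05). Scd2 changed by 1.89 ± 0.05 at 96 h over GM, and its 96 h libraries lay above its 60 h libraries. Acss2, which makes acetyl-CoA from acetate, had 3.92, 5.00 and 3.94 CPM in GM, 7.30, 7.44 and 6.51 at 12 h, 33.3, 35.7 and 32.7 at 24 h, 18.9, 19.2 and 20.4 at 48 h, 9.25, 9.22 and 9.13 at 60 h and 11.5, 11.4 and 11.6 at 96 h, and was likewise higher at 96 h than at 60 h in every library. Fads1, the delta-5 desaturase, had 61.6, 57.8 and 64.0 CPM at 96 h and 60.9, 59.5 and 56.6 CPM in GM; these overlapped, and its call (0.13 ± 0.05, edgeR adjusted p = 0.024) was lost in several alternatives, among them total-count scaling (adjusted p = 0.34).

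Members with roles in lipid supply or signalling outside the lists ended on either side of GM. Pcyt2, which makes the activated ethanolamine for phosphatidylethanolamine, had 17.6, 17.5 and 17.3 CPM in GM, 31.4, 30.5 and 28.9 at 12 h, 75.3, 80.3 and 79.98 at 24 h, 52.6, 54.4 and 52.9 at 48 h, 28.4, 32.2 and 30.0 at 60 h and 27.8, 27.8 and 28.9 at 96 h and was above GM at 96 h (0.76 ± 0.06, edgeR adjusted p = 2.6e-10). Lipg, a secreted phospholipase of the lipase family, was also above it, with 3.45, 3.09 and 3.87 CPM at 96 h and 2.24, 2.14 and 1.77 CPM in GM. Slc25a1, the carrier that exports citrate from mitochondria, had 23.2, 21.5 and 25.2 CPM at 96 h and 22.9, 20.2 and 21.7 CPM in GM, groups that overlapped. Its call (0.18 ± 0.08, edgeR adjusted p = 0.036) was lost with total-count scaling (adjusted p = 0.18) and with upper-quartile scaling (0.088). It was also lost in 7 of 18 fits with a single library left out. Kitl, the ligand of the KIT receptor, had 51.8, 51.0 and 53.7 CPM in GM, 65.6, 75.5 and 84.4 at 12 h, 102, 104 and 111 at 24 h, 66.6, 61.7 and 60.7 at 48 h, 48.0, 51.4 and 49.7 at 60 h and 34.5, 33.2 and 26.7 at 96 h, and its 96 h libraries were below those of GM (-0.66 ± 0.07, edgeR adjusted p = 4.0e-08).

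The members farthest below GM at 96 h were Add2, Cldn15 and Ranbp3l. Add2, the beta subunit of the membrane-skeleton protein adducin, had 20.5, 16.3 and 19.6 CPM in GM, 30.5, 32.3 and 31.3 at 12 h, 41.9, 39.2 and 42.0 at 24 h, 19.6, 18.2 and 17.6 at 48 h, 11.4, 12.2 and 12.2 at 60 h and 4.41, 3.87 and 3.64 at 96 h, and changed by -2.16 ± 0.09 at 96 h over GM (edgeR adjusted p = 1.4e-15). Its 48 h libraries overlapped those of GM, and at 60 h it was below GM (-0.55 ± 0.07). Cldn15 changed by -1.45 ± 0.18 and Ranbp3l by -1.19 ± 0.16 at 96 h over GM. Cav1, the scaffold protein of caveolae, had 96.0, 87.1 and 99.5 CPM in GM, 163, 172 and 189 at 12 h, 269.8, 280.1 and 270.3 at 24 h, 174, 172 and 172 at 48 h, 108, 109.8 and 113 at 60 h and 67.3, 66.7 and 65.7 at 96 h, above GM at 60 h (0.33 ± 0.05) and below it at 96 h (-0.42 ± 0.05, edgeR adjusted p = 9.1e-08). Add2 and Cav1 were named after their values were seen. Pgk1 was also below GM at 96 h (-0.42 ± 0.05), while Bnip3 (1.25 ± 0.07) and Aldoc (0.84 ± 0.24) were above it. Car9 was called above GM at 96 h (0.94 ± 0.39, edgeR adjusted p = 0.04). The call came from 9 to 16 reads per 96 h library and 2 to 13 per GM library, groups that overlapped. It was lost with total-count scaling (adjusted p = 0.057) and in a fit of the 2 groups alone (0.094). Of 18 fits with a single library left out 5 lost it, among them those without GM replicate 1 (0.21) or 3 (0.13).

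**Figure D4:**
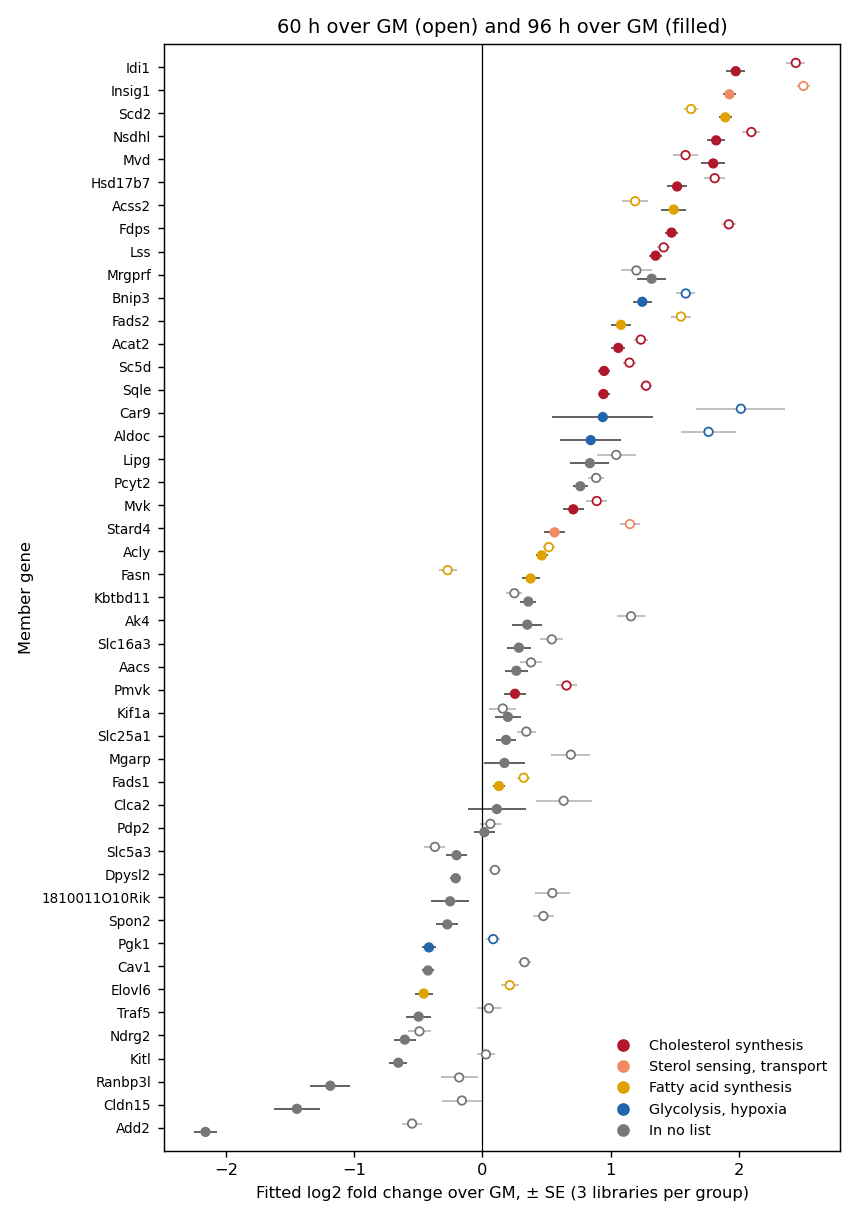
Fitted log2 fold change over GM of 47 members at 60 h (open circles) and 96 h (filled circles), with SE bars (3 libraries per group), sorted by the 96 h value and coloured by list. Every cholesterol synthesis gene shown lies right of 0 at both times, between 0.25 and 1.98 at 96 h, and Add2 lies farthest left at -2.16.

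The members that follow were named after their values were seen. Mgarp, a mitochondrial protein, had 11.8, 10.5 and 9.61 CPM at 24 h and 2.57, 3.39 and 2.61 CPM in GM. Pdp2, a phosphatase subunit that activates pyruvate dehydrogenase, had 24.0, 24.2 and 24.8 at 24 h and 9.88, 9.21 and 9.71 in GM. Aacs, which activates acetoacetate for lipid synthesis, had 122, 118 and 101 at 24 h and 38.6, 39.4 and 37.5 in GM. Each of these 3 lay below 24 h again at 48 h, and Mgarp and Pdp2 did not differ detectably from GM at 96 h. Slc5a3, the myo-inositol transporter, had 278, 294 and 381 CPM at 24 h, replicate 3 being the highest, and 135, 140.1 and 143 CPM in GM. Slc5a3 lies within the Mrps6 locus, so some of its reads may belong to Mrps6 transcripts. Dpysl2, a cytoskeletal protein of neurite growth, had 257, 243 and 262 at 24 h and 110.4, 110.0 and 119.7 in GM. Mrgprf, an orphan G protein-coupled receptor, had 13.3, 12.4 and 14.1 at 24 h and 2.31, 2.04 and 2.85 in GM and stayed above GM at 96 h (1.32 ± 0.12). The transcript 1810011O10Rik had 2.42, 2.17 and 2.99 CPM in GM, 10.0, 9.46 and 9.82 at 24 h and 3.69, 3.77 and 3.89 at 48 h, so most of its peak was gone by 48 h.

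Chromatin was read at the promoters of the 35 members with a start site in the RefSeq table, beside 7604 protein-coding genes with a 24 h mean of at least 3. The ATAC-seq and Hi-C lists are 1 per condition, at 60 h and in GM, and neither covers 24 h. All 35 members had an ATAC-seq peak within 1 kb of a start site in both lists, and so did 97.8% of the larger set. The fold enrichment of a peak is the authors' own value and was compared only within a list. In the 60 h list the member promoters had a median fold of 5.31, against 6.15 in the larger set, and in the GM list 5.50 against 6.18. Idi1 had the highest fold of the members in both lists, 10.3 in a peak at chr13:8885368-8886264 at 60 h and 10.3 at chr13:8885373-8886252 in GM. Acat2, Hsd17b7 and Mvk were also above the larger set's median in both. So were members in no list, among them Pdp2, Mgarp and Kitl, while Insig1, Fasn and Elovl6 were below it in both. Car9 had the weakest peak at 60 h, with a fold of 1.36 and a −log10 q of 1.5 at 60 h and a fold of 1.56 and a −log10 q of 3.8 in GM. With peaks of a −log10 q of at least 10 alone, 34 members kept a peak at 60 h and 33 in GM.

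A Hi-C loop anchor of 25 kb held a start site in 27 of the 35 members (77.1%), against 80.1% of the larger set. Loops called at 60 h only, and no other loop, were found at 3 members (Car9, Clca2 and Insig1), and loops called in GM only at 8 members that include Acat2, Acly, Pmvk and Idi1. The shares were 8.57% and 22.9% of the members, against 12.8% and 21.3% of the larger set. With anchors widened by 10 kb they were 2 and 5 members (5.71% and 14.3%), against 7.75% and 15.4% of the larger set. A domain boundary lay within 40 kb of the start site in 9 members at 60 h (25.7%) and 10 in GM (28.6%), against 19.3% at 60 h and 18.2% in GM of the larger set. Within 80 kb it was 11 members in each condition (31.4%), against 31.4% at 60 h and 30.2% in GM of the larger set. Aacs was the 1 member with a boundary in GM and none at 60 h within 40 kb, and within 80 kb no member had that pattern. These lists hold no error, and no test was made on them.

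Promoter sequence was described over the same 300 bases, on both strands. CCAAT was found in 18 of 35 members (51.4%), against 43.7% of 7564 genes with a 24 h mean of at least 3 and a promoter, and 41.1% of all 27025 genes of the table. The match was in 8 of 9 cholesterol synthesis members, all but Acat2, in 3 of 5 fatty acid members and in 3 of 16 members in no list. In Pmvk it was in the promoter at chr3:89454291-89454590 and not in that at chr3:89459321-89459620. CACGTG, an E-box form that SREBP1 and the MYC family can bind, was in 8 members (22.9%), against 12.5% and 8.09%; they were Hsd17b7, Sc5d, Insig1, Bnip3, Ak4, Kif1a, Pdp2 and Slc25a1. The core of the hypoxia element, ACGTG, which CACGTG contains, was in 16 members (45.7%), against 30.9% and 21.8%, and among them were all 4 members of the hypoxia and glycolysis lists. TGTTTAC, a FoxO sequence, was in 4 members (11.4%), against 3.00% and 4.05%. The sterol element written as TCACNCCAC was in 2 members (5.71%), Aldoc and Ndrg2, against 1.42% and 1.44%, and the longer classical form of that element was in none. CAGCTG, the E-box form of MyoD, was in 6 members (17.1%), against 16.9% and 18.3%. TGAGTCA, the AP-1 sequence, was in 2 members (5.71%), against 4.16% and 5.95%, and a MEF2 sequence in 1 (2.86%), Ndrg2, against 0.251% and 0.303%. Of the serum response element, the strict form searched was in no member, and the loose form, CC and GG with 6 free bases between them, was in 34 members (97.1%), against 89.8% and 75.1%. The generic E-box CANNTG, which contains the forms above, was in 28 members, against 65.3% and 74.99% of the 2 larger sets. A match is a description of letters, and no match says only that these letters are not in this window.

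**Figure D5:**
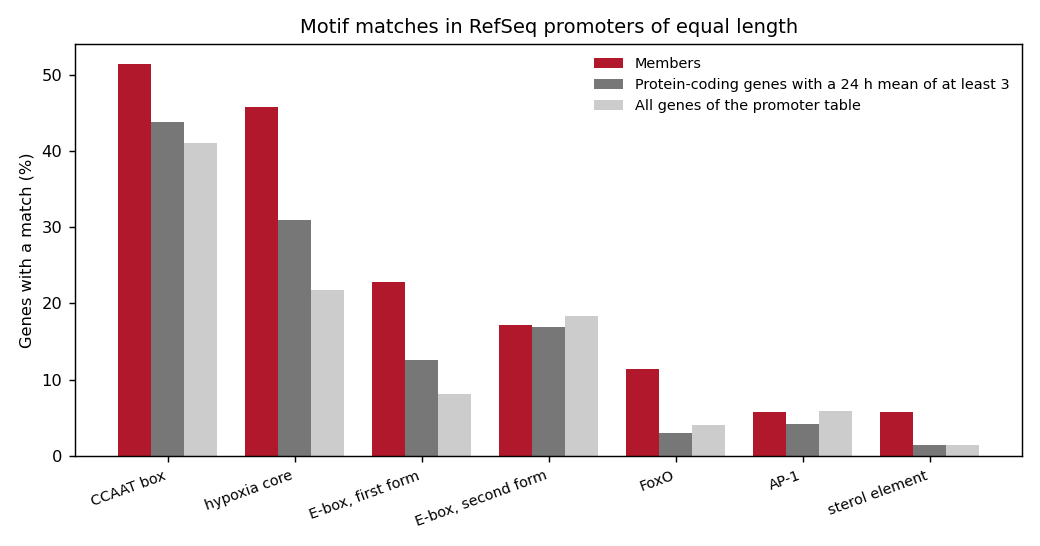
Share of genes (%) with at least 1 match in a promoter of 300 bases, for members (red, 35 genes), protein-coding genes with a 24 h mean of at least 3 (dark grey, 7564) and all genes of the RefSeq table (light grey, 27025); the first E-box form is the palindrome shared with the hypoxia core and the second is the form bound by MyoD. Member bars stand above both others for the CCAAT box (51.4%), the hypoxia core (45.7%) and the first E-box form (22.9%). They also do for FoxO (11.4%, 4 genes) and the sterol element (5.71%, 2 genes). For the second E-box form they stand level with the others, and for AP-1 between them.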

How the data were processed

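C2C12 myoblasts were sampled as 18 RNA-seq, 4 ATAC-seq and 6 Hi-C libraries. The deposited RNA values were whole counts per gene, 49089 features of which 22315 were 0 throughout. STAR, RSEM 1.3.0, DESeq2 and build mm10 were named for them, per the submitters' processing notes, and the sources used here do not say how whole counts were made. Peaks were deposited as 1 broad list per condition, with the authors' fold enrichment (a ratio) and −log10 q for each peak; Bowtie2 2.2.6 and MACS2 2.2.7 were named, per the submitters' processing notes, and pooling is not given. Domains and boundaries were deposited with a score on 40 kb bins, and the authors' 63732 loops had 25 kb anchors; the callers are not given.

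Members were found on log2(CPM + 1) over library totals. The members and gene lists were chosen with earlier results of these data known. Tests used edgeR 4.0.16 (R 4.3.3): TMM scaling, a filter on low counts by group that left 15303 genes and at least 99.95% of the counts of each library, 1 quasi-likelihood fit over all 18 libraries with 12 residual degrees of freedom, Benjamini-Hochberg adjustment over all genes tested, and calls at an adjusted p under 0.05. All 50 members passed the filter. The SE of a log2 fold change was its size divided by the square root of F. The common biological coefficient of variation was 0.0621. Steps were tested on simulated data. Library totals of 24154680 to 36405121 counts limit precision chiefly for genes of few counts. No replicate pair was alike within sampling noise (18 pairs, with chi-square values of 5.06 to 53.2 for each degree of freedom).

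Times were taken from sample titles, since the protocol text gave differing last time points. Genes named were the 20 members with the largest peak margin, up to 8 per list, those with the largest and smallest changes at 12 h and 48 h, those nearest the limits and those with loops in 1 condition; other members are said to be named after their values were seen. Promoters were those of RefSeq (GRCm38.p6), found by symbol or gene ID for 35 of 50 members; peaks were counted within 1 kb of a start site and boundaries within 40 kb. Alternatives were other scalings, no filter, DESeq2 1.42.0, a replicate block, fits of the groups compared alone, each library left out, and other limits of the rule. Results of some genes are not reported here, and 47 of the 50 members are plotted.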

Additional observations from a re-analysis of the deposited data

How the results depend on the processing

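The number of member genes depended on the scaling and the limits: 31 with CPM on TMM-scaled library sizes (all 31 among the 50), 83 with a margin of 0.8, 10 with a margin of 1.5 and 10 when a level at least 1 above 48 h was also required. It was 48 to 52 with single libraries left out, 39 on the protein-coding total (36 shared), 54 with a pseudocount of 0.5, 40 with a 24 h mean of at least 4 and 52 over every biotype. Alternatives were compared for 235 member values, of which 226 were called. The 10 values at 60 h and 5 at 96 h over GM that did not pass the test were left out of that comparison. None of the called values changed direction under the alternatives run, and 17 lost their call under at least 1. Uncalled values changed sign for Add2 at 48 h over GM (-0.02, against 0.0043 with upper-quartile scaling and -0.13 to 0.0465 with single libraries left out). They also did for Kif1a at 12 h over GM (-0.01, against 0.0135 with RLE scaling, 0.0344 without a filter, 0.0134 with DESeq2, 0.0302 with total-count scaling, and -0.014 to 0.0759 with single libraries left out); the cause was not tested. Total-count scaling was chosen after seeing the data. In 2 values a call was gained under at least 1 alternative. Fasn at 12 h over GM passed the test without a filter (edgeR adjusted p = 0.0026) and with total-count scaling (0.049). It also passed without replicate 3 of 12 h (edgeR adjusted p = 0.022), 24 h (0.034) or 96 h (0.048). Ranbp3l at 48 h over GM passed without GM replicate 3 (edgeR adjusted p = 0.042). With single libraries left out, 44 to 47 members were higher at 12 h than in GM, 44 to 46 at 48 h, 35 to 37 at 60 h and 26 to 31 at 96 h, and 46 to 48 were lower at 48 h than at 24 h. Replicate numbers did not pair the samples: over 45 same-numbered pairs the correlation of deviations ran from -0.18 to 0.15, and 2 pairs were over 0.1. With a replicate block the calls were 46 higher and 1 lower at 12 h, 45 higher at 48 h, 48 lower at 48 h against 24 h, 36 higher and 4 lower at 60 h, and 31 higher and 14 lower at 96 h. Depth limits Car9, which had 2 to 13 reads per GM library, more than the other members described.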
